A study of Mus musculus with 18 samples.

Results

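Chromatin accessibility was examined around the neutrophil chemokine genes Cxcl1, Cxcl2, Cxcl3 and Cxcl5 in bone marrow-derived macrophages (BMDMs) from Il10-/- mice. A peak of the union ATAC-seq peak set was taken when it overlapped one of these genes extended by 25 kb on both sides in the GENCODE M1 annotation of mm9. This rule, which used positions and no measured value, gave 35 peaks of 194284, of which 7 were classed as promoter peaks and 28 as distal peaks. The windows of Cxcl5, Cxcl3, Cxcl1 and Cxcl2 held 19, 13, 15 and 13 peaks, and 25 peaks lay in more than 1 window, so neighbouring genes were described together as a Cxcl5 and Cxcl3 block (20 peaks) and a Cxcl1 and Cxcl2 block (15 peaks). LPS opened chromatin at and downstream of Cxcl1 and Cxcl2 while the start sites of Cxcl5 and Cxcl3 showed no call. IL-10 pretreatment lowered that LPS-associated signal, and the result for (+)-JQ1 turned on 1 library.

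The 4 genes encode secreted CXC chemokines that carry the ELR motif, bind the receptor CXCR2 and draw neutrophils from blood into tissue. Macrophages make Cxcl1 and Cxcl2 within hours of sensing bacterial lipopolysaccharide (LPS) through TLR4, a response that runs through NF-kappaB and related factors, while Cxcl5 is known mainly from epithelial and stromal cells. The genes lie close together on mouse chromosome 5 beside the platelet chemokine genes Ppbp and Pf4. IL-10 is an anti-inflammatory cytokine that signals through STAT3, and (+)-JQ1 displaces the bromodomain and extra-terminal (BET) proteins from acetylated histones.

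BMDMs were grown for 6 days in L929-conditioned medium from the marrow of 3 male mice, 12 weeks old, on a C57BL/6J background. All groups, controls included, lacked Il10, so the cells could not supply their own IL-10. The 6 groups of 3 libraries were unstimulated cells, cells given 500 nM (+)-JQ1, cells given 10 ng/mL IL-10, and the same 3 conditions with 50 ng/mL LPS added for the last 4 hours after 12 hours of pretreatment, with PBS in place of LPS in the others and 16 hours of culture in all. ATAC-seq counts reads at sites where the Tn5 transposase could cut, and values are given as normalised read counts scaled to library size (CPM), mean ± SD with n = 3 libraries. Cultured marrow macrophages of 1 sex and 1 genotype are the limits of the model.

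Total counts in peaks ranged from 12020526 to 25908198 per library with a median of 19819132. Sequencing lane 5 held replicate 1 of all groups together with replicate 2 of the 3 groups that got no LPS, and lane 6 held the other libraries. All 7 macrophage markers examined had a peak at their promoter, with median levels between the 81.8th percentile (Cd68) and the 97.8th percentile (Csf1r and Mertk) of all peaks. Promoter peaks were also found for 4 of 5 neutrophil, 1 of 4 T cell, 2 of 2 dendritic cell, 4 of 4 fibroblast or epithelial and 2 of 2 erythroid markers, so an open promoter alone did not set the cell type, while Ly6g, Cd3e, Cd3g and Cd4 had none. At Il10 itself, 3 peaks over the gene body held counts in every library, from 14 to 474 per peak, so accessibility there did not check the genotype.

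Replicate 1 of the LPS + (+)-JQ1 group, with 13619436 counts in peaks, stood apart at these loci. Over the 15 peaks of the Cxcl1 and Cxcl2 block its log2 CPM lay a median of 0.70 above the mean of the other 2 libraries of its group. It was the highest of the 3 at 12 of 15 peaks (80%), against 36.1% of all tested peaks. The other 17 libraries lay between -0.38 and 0.17 of their own groups by the same measure. In the Cxcl5 and Cxcl3 block the median difference was 0.38 over 20 peaks, over the other 153 peaks within 1 Mb it was 0.10, and over all 194230 tested peaks it was 0.01. Replicate 1 was the highest of the 3 at 15 of the 20 peaks (75%) and at 46.4% of the 153. Over the 22790 peaks that were higher with LPS anywhere in the genome this library lay 0.14 above its group, inside the range of the other 17 libraries (-0.12 to 0.14). Results that rest on this library are therefore given with and without it.

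The sequences just before the 4 start sites are shown because each holds a match to the kappaB consensus, the letters that NF-kappaB is known to bind. All 4 genes are on the plus strand, and the 250 bases before each start were read from mm9: chr5:91188075-91188324 for Cxcl5, chr5:91214879-91215128 for Cxcl3, chr5:91320017-91320266 for Cxcl1 and chr5:91332647-91332896 for Cxcl2. Capitals mark matches to the kappaB consensus or, once in Cxcl5, to the C/EBP letters TTGCNNAA on the opposite strand.
Cxcl5 promoter: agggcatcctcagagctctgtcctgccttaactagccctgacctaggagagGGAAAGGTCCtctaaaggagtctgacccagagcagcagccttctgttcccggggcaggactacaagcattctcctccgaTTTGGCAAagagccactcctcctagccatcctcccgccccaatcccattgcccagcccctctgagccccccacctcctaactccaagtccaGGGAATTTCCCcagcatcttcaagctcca
Cxcl3 promoter: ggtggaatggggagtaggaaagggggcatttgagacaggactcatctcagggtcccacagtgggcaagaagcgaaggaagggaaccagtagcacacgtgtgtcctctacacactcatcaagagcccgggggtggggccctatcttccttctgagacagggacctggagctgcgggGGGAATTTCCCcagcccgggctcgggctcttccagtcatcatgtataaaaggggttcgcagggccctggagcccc
Cxcl1 promoter: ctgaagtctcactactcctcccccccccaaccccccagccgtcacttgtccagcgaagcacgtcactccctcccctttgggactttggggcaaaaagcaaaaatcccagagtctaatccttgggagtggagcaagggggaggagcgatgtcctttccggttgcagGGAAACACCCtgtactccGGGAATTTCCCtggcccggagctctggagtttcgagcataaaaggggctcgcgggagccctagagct
Cxcl2 promoter: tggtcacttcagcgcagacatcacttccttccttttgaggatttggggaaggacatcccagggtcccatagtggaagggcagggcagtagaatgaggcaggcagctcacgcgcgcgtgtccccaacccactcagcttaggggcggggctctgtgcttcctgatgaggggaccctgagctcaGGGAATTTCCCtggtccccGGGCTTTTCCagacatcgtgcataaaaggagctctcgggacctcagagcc
The longest run of letters common to all 4 windows was the 11 bases GGGAATTTCCC, once in each window, starting 29 bases before the start of Cxcl5, 75 before Cxcl3, 67 before Cxcl1 and 69 before Cxcl2. Of 22375 windows from 250 bases before to 50 after the start of a protein-coding gene, 10 (0.0447%) held this run on either strand, and these 4 genes were 4 of the 10. The run was chosen after the sequences were read. By gene pair, the longest shared run was 15 bases between Cxcl5 and Cxcl3 and 14 bases between Cxcl1 and Cxcl2, against 11 to 13 for the other pairs. A second kappaB match lay 199 to 190 bases before the start of Cxcl5, 85 to 76 before Cxcl1 (both on the opposite strand) and 50 to 41 before Cxcl2, and Cxcl3 had no second match.

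A match is a description of letters and says nothing of binding. The kappaB consensus was found in 10.8% of all promoter windows and in the central 300 bases of 8.46% of all peaks. Among the 35 peaks near the chemokine genes, 2 (5.71%) held it in their central 300 bases, and the shared run of each start site lay outside the central 300 bases of its peak. The AP-1 letters TGANTCA were in the centre of 7 peaks (against 12.1% of all peaks), the C/EBP letters TTGCNNAA in 7 (against 12.5%), the interferon response letters (GAAA, any 2 bases, GAAA) in 3 (8.57%, against 4.4%) and the PU.1 letters GAGGAA in 10 (28.6%, against 31.7%). Both strands were searched, and the motifs may overlap.

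LPS stimulation opened chromatin at Cxcl1 and Cxcl2. The peak over the Cxcl2 start site (chr5:91332044-91334118), which covers coding exons and the 5′ UTR of a gene for a major neutrophil attractant, held 9.84, 11.3 and 11.9 CPM in the 3 unstimulated libraries and 61.8, 58.7 and 58.7 CPM in the 3 LPS libraries. All LPS libraries lay above all unstimulated libraries. The log2 fold change was 2.43 (SE 0.15, FDR = 5.71e-27 by edgeR's quasi-likelihood test over all peaks), a 5.4-fold rise. The peak over the Cxcl1 start site (chr5:91319697-91321782) held 1.74, 2.58 and 3.84 CPM without stimulation and 14.3, 11.5 and 9.38 CPM with LPS, again without overlap (log2 fold change 2.09, SE 0.23, FDR = 5.38e-13, edgeR). Within lane 5 alone the Cxcl1 peak was at 1.74 and 2.58 CPM without and 14.3 CPM with LPS, and within lane 6 at 3.84 CPM without and 11.5 and 9.38 CPM with LPS, so the difference stood in both lanes. Marker signal moved with LPS as well. The summed promoter signal was 9.77 to 15.9 CPM without and 19.9 to 24.4 CPM with LPS for the 1 of 4 T cell markers that had a peak (Lck), without overlap. Nor did the groups overlap for the 2 of 2 dendritic cell markers (27.7 to 41.2 and 42.3 to 47.0 CPM) or the 4 of 4 fibroblast and epithelial markers (44.4 to 47.0 and 50.5 to 54.1 CPM). For the 7 of 7 macrophage markers it was 104 to 163 and 158 to 176 CPM and for the 4 of 5 neutrophil markers with a peak 37.5 to 56.0 and 44.2 to 51.3 CPM, with overlap, and the part of these signals in the results was not tested. In bulk libraries, fewer cells with an open site and a less open site in each cell cannot be told apart.

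**Figure D1:**
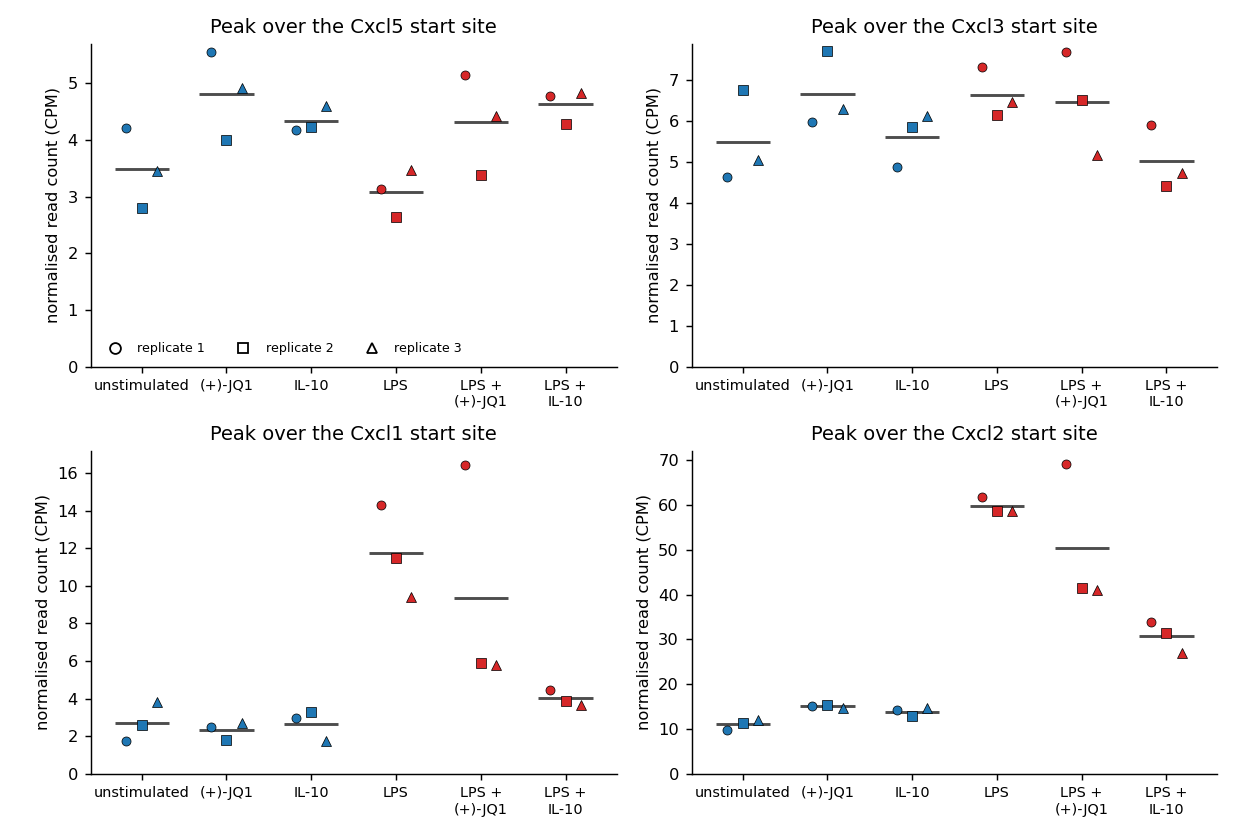
Normalised read counts (CPM, linear axis from 0) of the peak over each start site in the 6 groups; points are the 3 libraries of a group by replicate number, red with LPS and blue without, and lines are group means. Cxcl1 and Cxcl2 were higher in every LPS library than in every unstimulated library, and replicate 1 of LPS + (+)-JQ1 (16.4 CPM at Cxcl1, 69.1 CPM at Cxcl2) lay above the other 2 libraries of its group.

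The largest LPS change near the 4 genes was not at a start site. The peak centred 2.33 kb after the Cxcl2 start (chr5:91334430-91336016), which overlaps the end of the Cxcl2 3′ UTR and runs beyond the gene, rose from 2.07, 3.08 and 2.03 CPM to 13.4, 17.3 and 16.1 CPM (log2 fold change 2.69, SE 0.21, FDR = 2.08e-20, edgeR), placing it at rank 329 of 194230 tested peaks. The next peak, intergenic and centred 3.82 kb after the start (chr5:91336191-91337237), rose from 1.27, 2.36 and 1.04 CPM to 6.62, 6.94 and 6.15 CPM (log2 2.06, SE 0.25). The central bases of both are given, since they carried the largest LPS changes outside the start sites. They are chr5:91335074-91335373 and chr5:91336565-91336864 of mm9, plus strand, with capitals marking the PU.1 letters in the first and a match to the interferon response letters on the opposite strand in the second.
Cxcl2 +2.33 kb peak centre: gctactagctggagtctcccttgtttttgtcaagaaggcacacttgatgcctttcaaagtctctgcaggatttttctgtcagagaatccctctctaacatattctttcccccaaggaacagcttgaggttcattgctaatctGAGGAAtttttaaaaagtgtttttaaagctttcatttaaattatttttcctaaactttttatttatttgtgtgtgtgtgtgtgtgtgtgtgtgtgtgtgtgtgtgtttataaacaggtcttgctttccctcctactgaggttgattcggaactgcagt
Cxcl2 +3.82 kb peak centre: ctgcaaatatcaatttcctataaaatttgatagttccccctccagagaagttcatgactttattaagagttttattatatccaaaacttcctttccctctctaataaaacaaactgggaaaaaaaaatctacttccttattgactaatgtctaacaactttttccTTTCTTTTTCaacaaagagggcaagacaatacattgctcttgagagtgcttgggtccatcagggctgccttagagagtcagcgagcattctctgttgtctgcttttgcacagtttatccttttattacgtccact
Neither window held a kappaB, AP-1 or C/EBP match, which says only that those letters are not in these 300 bases.

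The rest of the Cxcl1 and Cxcl2 block moved less. The peak 5.39 kb after the Cxcl2 start rose from 5.62, 7.03 and 5.37 CPM to 10.8, 13.1 and 10.9 CPM (log2 0.95, SE 0.17), and the broad peak 3.97 kb before it, among the 3 strongest of the 35, went from 14.3, 18.2 and 26.4 CPM to 30.0, 32.3 and 29.6 CPM (log2 0.64, SE 0.14). Just past the end of Cxcl1, the peak centred 2.74 kb after its start (chr5:91322136-91323868) rose from 3.01, 2.42 and 3.23 CPM to 5.47, 6.34 and 5.02 CPM (log2 0.96, SE 0.24). The groups did not overlap at any of these 3 peaks. The last of them carries the promoter class and also covers an annotated 5S_rRNA gene. In all, 9 of the 15 peaks in the block were called higher with LPS and 0 lower. The 2 called peaks not described above lay 4.8 kb after and 10.2 kb before the Cxcl1 start, with log2 fold changes of 0.74 and 0.81. The other 6 peaks, all from 6.32 kb to 23.34 kb before the Cxcl1 start, had log2 fold changes between -0.77 and 0.26 and were not called.

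The start sites of Cxcl5 and Cxcl3 did not follow. The Cxcl5 promoter peak (chr5:91186575-91188851) held 4.22, 2.80 and 3.45 CPM without and 3.12, 2.65 and 3.46 CPM with LPS (log2 fold change -0.18, SE 0.21, 95% interval -0.59 to 0.24), and the groups overlapped. The Cxcl3 promoter peak (chr5:91213933-91215820) held 4.62, 6.76 and 5.04 CPM without and 7.30, 6.14 and 6.45 CPM with LPS (log2 0.27, SE 0.18, 95% interval -0.08 to 0.62), also with overlap. Unstimulated levels at these start sites (3.49 ± 0.71 CPM at Cxcl5 and 5.47 ± 1.13 CPM at Cxcl3) were above the 2.72 ± 1.05 CPM at Cxcl1, although peak widths differ and CPM is not per length. Peaks over the bodies were low: the one in Cxcl5 centred 1.56 kb after the start ranged from 0.366 to 1.92 CPM over the 18 libraries and the one at its 3′ end, 2.53 kb after the start, from 0.23 to 1.18 CPM, and neither was called in LPS against unstimulated cells. The latter was called lower with LPS in IL-10-treated cells (log2 -1.47, SE 0.46).

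In the Cxcl5 and Cxcl3 block, 2 of 20 peaks were called higher with LPS and 2 lower. The peak 13.89 kb before Cxcl5 went from 2.14, 1.65 and 1.32 CPM to 4.23, 3.40 and 2.51 CPM (log2 1.01, SE 0.27), without overlap. The peak over the end of Cxcl3, centred 3.28 kb after its start, went from 4.82, 4.56 and 4.22 CPM to 8.96, 6.29 and 4.60 CPM (log2 0.56, SE 0.19), with overlap and with replicate 1 farthest from the control. The 2 lower peaks lay between Cxcl5 and Cxcl3. One, intergenic and 11.75 kb after the Cxcl5 start, fell from 2.88, 3.63 and 2.25 CPM to 1.70, 1.15 and 1.13 CPM (log2 -1.12, SE 0.26). The other, over the start of Pf4, the gene for platelet factor 4, was at 9.70, 12.6 and 18.9 CPM without and 10.4, 9.89 and 7.70 CPM with LPS (log2 -0.56, SE 0.16), with overlap.

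Over all 35 peaks, 11 (31.4%) were called higher and 2 (5.71%) lower with LPS at FDR below 0.05 and an absolute log2 fold change above 0.5. The background over all 194230 tested peaks was 11.7% higher and 10.2% lower. The median log2 fold change was 0.74 in the Cxcl1 and Cxcl2 block and -0.12 in the Cxcl5 and Cxcl3 block, against -0.03 over all peaks.

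**Figure D2:**
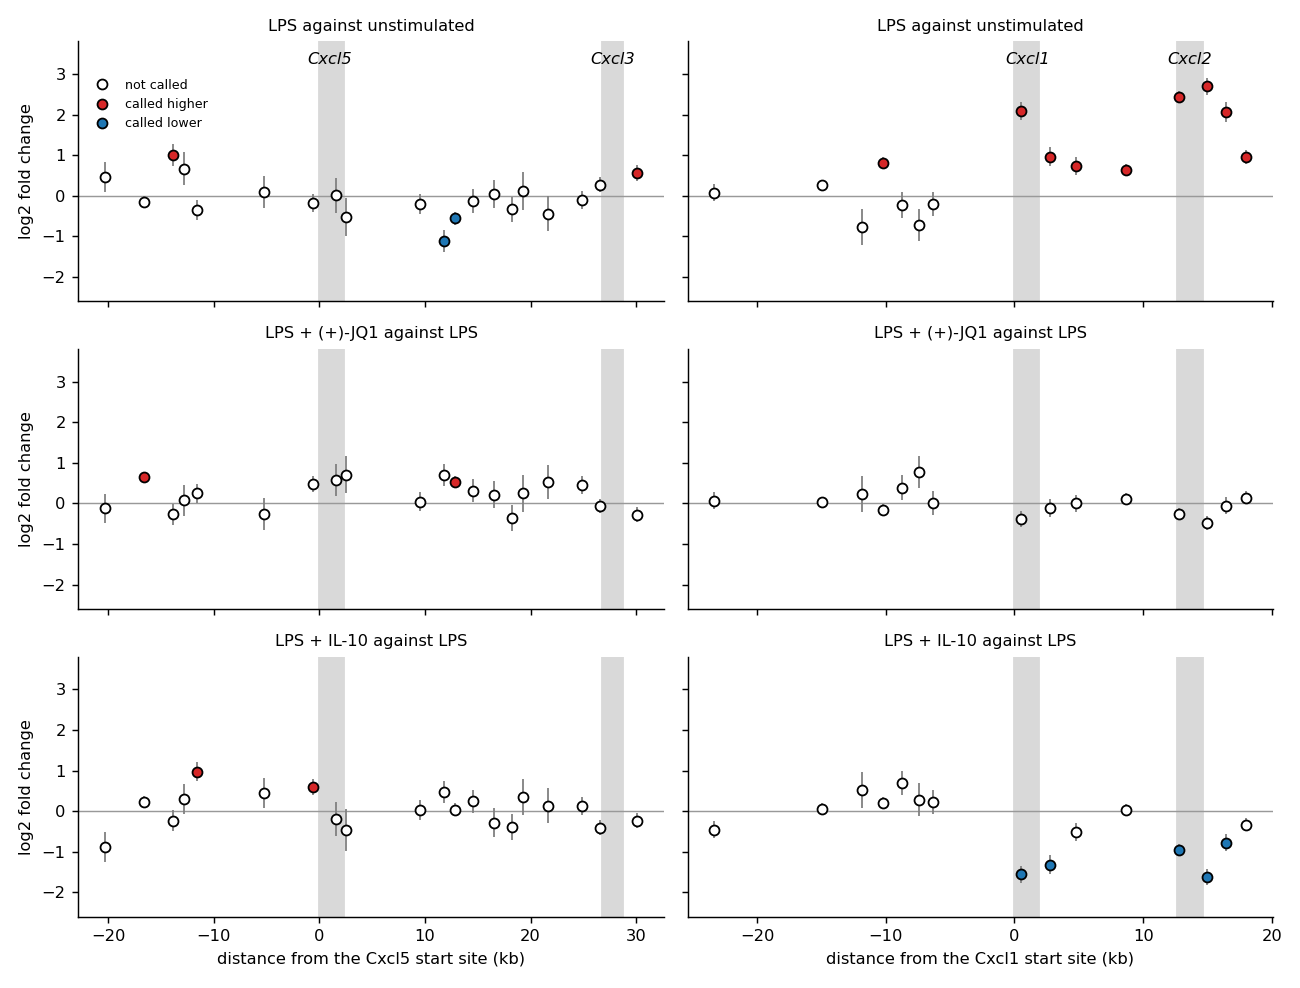
Log2 fold change (points, with SE bars) of each peak against its distance in kb from the Cxcl5 start (left) or the Cxcl1 start (right) for LPS against unstimulated, LPS + (+)-JQ1 against LPS and LPS + IL-10 against LPS; grey bands are gene bodies, and filled points were called higher (red) or lower (blue). With LPS, 9 of 15 peaks on the right were called higher, and with IL-10 before LPS 5 of them were called lower.

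Pretreatment with (+)-JQ1 was compared with LPS alone to ask whether BET inhibition limited this opening. With all libraries, 2 of the 35 peaks were called higher and 0 lower in LPS + (+)-JQ1 (background 1.74% higher and 3.49% lower). DESeq2 also called 2 higher and 0 lower, and 1 of the 35 peaks had a negative fold change at an unadjusted p under 0.05 in edgeR. At the Cxcl2 start site the 3 LPS + (+)-JQ1 libraries held 69.1, 41.4 and 41.0 CPM, so that replicate 1 lay above all 3 LPS libraries and the other 2 below all of them (log2 fold change -0.25, SE 0.14, FDR = 0.338). The Cxcl1 start site held 16.4, 5.89 and 5.78 CPM (log2 -0.38, SE 0.20, FDR = 0.312), with the same order. The peak 2.33 kb after the Cxcl2 start held 19.0, 8.68 and 6.86 CPM (log2 -0.48, SE 0.18, FDR = 0.0953).

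Without replicate 1 of LPS + (+)-JQ1, these 3 peaks were called lower than in LPS alone. The log2 fold change became -1.01 (SE 0.20, FDR = 0.000199, edgeR) at the Cxcl1 start, -0.54 (SE 0.15, FDR = 0.0124) at the Cxcl2 start and -1.01 (SE 0.18, FDR = 2.07e-05) at the peak 2.33 kb after it. All 15 peaks of the block had a median of 0.02 with all libraries and -0.11 without that one. The 9 of them that were higher with LPS had a median of -0.11 and -0.46. These 9 were picked by high values in the same LPS libraries that are the reference here, so their medians lean downward. Leaving out replicate 2 or replicate 3 of the group instead, 0 peaks were called lower. Lane and replicate moved together here. On lane 5 the only LPS + (+)-JQ1 library, replicate 1, was above the only LPS library at the Cxcl1 start (16.4 against 14.3 CPM). On lane 6 both LPS + (+)-JQ1 libraries were below both LPS libraries (5.89 and 5.78 against 11.5 and 9.38 CPM). With lane as a covariate 1 peak was called lower. Since each lane holds 1 or 2 libraries of each group, whether the libraries or the lanes set this split was not tested.

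**Figure D3:**
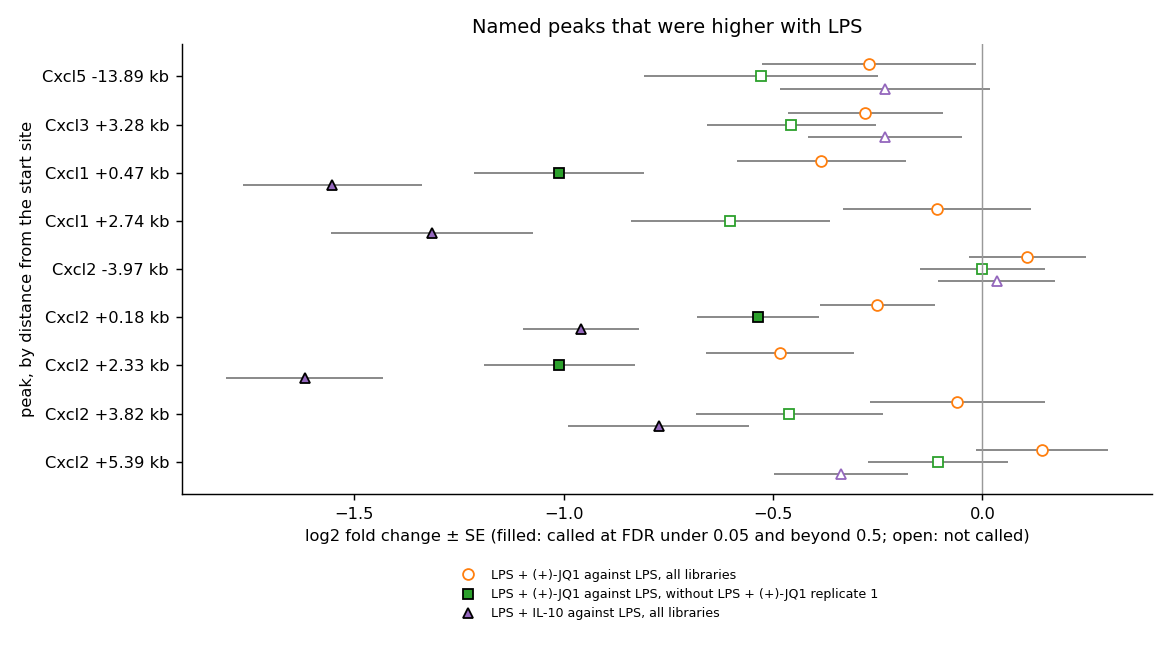
Log2 fold change with SE (horizontal axis) of the 9 named peaks that were higher with LPS, for LPS + (+)-JQ1 against LPS with all libraries (circles), the same without replicate 1 of LPS + (+)-JQ1 (squares) and LPS + IL-10 against LPS (triangles); filled symbols were called. No circle is filled, 3 squares are and 5 triangles are.

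The 2 peaks called higher with (+)-JQ1 under LPS were in the Cxcl5 and Cxcl3 block. The strong intergenic peak 16.59 kb before Cxcl5 (chr5:91170100-91173376) held 18.3, 15.3 and 11.8 CPM in LPS and 27.4, 21.0 and 23.2 CPM in LPS + (+)-JQ1 (log2 0.65, SE 0.14), without overlap, and the call was kept without replicate 1 of LPS + (+)-JQ1 (log2 0.54, SE 0.15) but lost without LPS replicate 3 (log2 0.50, FDR = 0.0469), where the change fell just under the size threshold. The Pf4 start site held 10.4, 9.89 and 7.70 CPM in LPS and 13.7, 13.2 and 13.7 CPM with (+)-JQ1 (log2 0.53, SE 0.15, FDR = 0.0229), a call that was lost without replicate 2 (FDR = 0.0554) or replicate 3 (FDR = 0.082) of LPS + (+)-JQ1, without LPS replicate 3 (log2 0.41, FDR = 0.198), and without replicate number 2 (FDR = 0.166) or 3 (FDR = 0.246) of all groups. The summed promoter signal of the 7 macrophage markers was 201 to 222 CPM in LPS + (+)-JQ1 and 158 to 176 CPM in LPS, and its part in these results was not tested. The Cxcl5 and Cxcl3 start sites were not called (log2 0.48, SE 0.21 and log2 -0.07, SE 0.18).

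IL-10 before LPS lowered accessibility at Cxcl1 and Cxcl2. Against LPS alone, 5 of the 35 peaks were called lower and 2 higher (background 4.51% lower and 4.26% higher), and all 5 were in the Cxcl1 and Cxcl2 block and had been called higher with LPS. The same LPS libraries enter both comparisons with opposite sign, so this overlap is partly built in and is not separate support. The Cxcl1 start site fell to 4.47, 3.88 and 3.67 CPM from 14.3, 11.5 and 9.38 CPM (log2 -1.55, SE 0.21, FDR = 2.00e-08, edgeR). The Cxcl2 start site fell to 33.9, 31.4 and 27.1 CPM from 61.8, 58.7 and 58.7 CPM (log2 -0.96, SE 0.14, FDR = 8.11e-08), which was still above every library without LPS. The largest drop was again 2.33 kb after the Cxcl2 start, at 5.44, 5.04 and 4.73 CPM (log2 -1.62, SE 0.19, FDR = 5.34e-11), a 3.07-fold lower level.

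The remaining 2 lower peaks were those 2.74 kb after the Cxcl1 start, at 2.44, 2.38 and 1.98 CPM (log2 -1.31, SE 0.24), and 3.82 kb after the Cxcl2 start, at 3.76, 4.58 and 3.26 CPM (log2 -0.77, SE 0.22). None of the 5 overlapped between LPS and LPS + IL-10, but they were picked by their call in this comparison, so this adds no support. In all, 9 of the 35 peaks were lower without overlap, and no such share over all peaks is given here. At the Cxcl1 start the difference was present on lane 5 (4.47 against 14.3 CPM) and on lane 6 (3.88 and 3.67 against 11.5 and 9.38 CPM). Of the other 4 peaks opened by LPS in the block, the broad one 3.97 kb before Cxcl2 held 34.9, 31.1 and 28.2 CPM with IL-10 and did not differ beyond its spread (log2 0.03, 95% interval -0.24 to 0.31). The one 5.39 kb after Cxcl2 held 10.6, 9.10 and 7.99 CPM, without overlap but not called (log2 -0.34, SE 0.16, FDR = 0.182).

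At Cxcl5 the direction was the opposite. The Cxcl5 promoter peak held 4.77, 4.29 and 4.82 CPM with LPS + IL-10 against 3.12, 2.65 and 3.46 CPM with LPS (log2 0.59, SE 0.20, FDR = 0.0446), and the intergenic peak 11.63 kb before it held 4.06, 3.88 and 3.90 CPM against 2.16, 1.85 and 2.03 CPM (log2 0.97, SE 0.23, FDR = 0.00165). The groups did not overlap at either. The call at the Cxcl5 promoter was lost without LPS replicate 1, 2 or 3 (FDR = 0.107, 0.184 and 0.0508), each left out alone, and without any 1 replicate number. The Cxcl3 promoter peak was at 5.89, 4.40 and 4.73 CPM against 7.30, 6.14 and 6.45 CPM, lower in 3 of 3 same-numbered pairs but not called (log2 -0.40, SE 0.18, FDR = 0.143). The summed promoter signal of the 4 of 5 neutrophil markers that had a peak was 64.0 to 69.8 CPM in LPS + IL-10 and 44.2 to 51.3 CPM in LPS, and that of the 7 macrophage markers 162 to 182 and 158 to 176 CPM. Their part in these results was not tested.

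The 2 pretreatments were then set against each other under LPS. With all libraries, 5 of the 35 peaks were called higher in LPS + (+)-JQ1 than in LPS + IL-10 and 1 lower (background 3.43% higher and 4.68% lower). The 5 were the same peaks that IL-10 lowered. Both comparisons use the same LPS + IL-10 libraries, so this overlap is partly built in and is not separate support. The log2 difference was 1.17 (SE 0.22) at the Cxcl1 start, 0.71 (SE 0.14) at the Cxcl2 start and 1.14 (SE 0.19) at the peak 2.33 kb after it. Without replicate 1 of LPS + (+)-JQ1, only the peak 2.33 kb after the Cxcl2 start was called (log2 0.61, SE 0.19, FDR = 0.0284), and the Cxcl1 and Cxcl2 starts had log2 differences of 0.54 (SE 0.21, FDR = 0.111) and 0.42 (SE 0.15, FDR = 0.0553). The 1 lower peak, 11.63 kb before Cxcl5 (log2 -0.72, SE 0.23), was then not called either.

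Each pretreated group was also compared with its own control without LPS. In (+)-JQ1-treated cells LPS called 10 peaks higher and 3 lower (background 5.69% and 3.58%), and 9 of the 10 were in the Cxcl1 and Cxcl2 block. The Cxcl2 start rose from 15.1, 15.3 and 14.7 CPM to 69.1, 41.4 and 41.0 CPM (log2 1.74, SE 0.15), and the Cxcl1 start from 2.50, 1.82 and 2.72 CPM to 16.4, 5.89 and 5.78 CPM (log2 1.92, SE 0.24). No LPS + (+)-JQ1 library overlapped a (+)-JQ1 library at either. Without replicate 1 of LPS + (+)-JQ1, the log2 fold change was 1.45 (SE 0.15) at the Cxcl2 start and 1.29 (SE 0.23) at the Cxcl1 start, and 5 peaks were called higher, all 5 among the 10.

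In IL-10-treated cells LPS called 7 peaks higher and 3 lower (background 8.93% and 6.47%), 6 of the 7 in the Cxcl1 and Cxcl2 block. The Cxcl2 start rose from 14.2, 12.8 and 14.6 CPM to 33.9, 31.4 and 27.1 CPM (log2 1.15, SE 0.15) and the peak 2.33 kb after it from 1.82, 1.65 and 1.79 CPM to 5.44, 5.04 and 4.73 CPM (log2 1.53, SE 0.23). The Cxcl1 start held 2.95, 3.31 and 1.74 CPM with IL-10 and 4.47, 3.88 and 3.67 CPM with LPS + IL-10, without overlap, and was not called (log2 0.59, SE 0.24, FDR = 0.0801). The 3 comparisons with and without LPS use different controls, and 5 peaks were called higher in all of them. No share over all peaks is given for this joint count, so whether 5 is many cannot be said.

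Without LPS, neither agent changed the Cxcl1 or Cxcl2 start sites by the calling rule. IL-10 alone called 0 of 35 peaks in either direction (background 5.16% higher and 3.5% lower), with 4 of 35 at an unadjusted p under 0.05, and DESeq2 called 0. With (+)-JQ1 alone, 3 peaks were called higher and 3 lower (background 7.85% and 3.15%). The higher ones were the peaks 16.59 kb before Cxcl5 (15.4, 16.3 and 19.1 CPM to 30.5, 28.3 and 27.1 CPM, log2 0.76, SE 0.14) and 11.63 kb before it (log2 0.83, SE 0.23) and the Pf4 start (log2 0.56, SE 0.15). The calls depended on single replicates: without replicate number 1, 2 or 3 of all groups, 2, 1 and 5 peaks were called higher and 0, 0 and 3 lower. The summed macrophage marker signal was 206 to 216 CPM with (+)-JQ1 and 104 to 163 CPM in unstimulated cells, and its part in these results was not tested. Loess offsets left 1 higher and 1 lower. With total counts in place of TMM scaling, under which the median over all peaks moved from -0.09 to -0.37, 0 peaks were called higher. The lower ones were the peaks 8.58 kb before Cxcl3 (log2 -1.26, SE 0.34), 7.4 kb before Cxcl1 (log2 -1.42, SE 0.44) and 2.33 kb after the Cxcl2 start. The last was at 1.07, 1.26 and 1.62 CPM against 2.07, 3.08 and 2.03 CPM (log2 -0.85, SE 0.28). Its call was lost in DESeq2 (FDR = 0.161) and with loess offsets (FDR = 0.0734), where the peak 8.58 kb before Cxcl3 kept its call. Without replicate number 1 or 2 of all groups both lost it. The Cxcl2 start was at 15.1, 15.3 and 14.7 CPM with (+)-JQ1 against 9.84, 11.3 and 11.9 CPM, without overlap, with a log2 fold change of 0.44 (SE 0.15, FDR = 0.0421) that stayed under the size threshold.

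An interaction term asked whether the LPS change differed between pretreated and untreated cells. For IL-10, 3 of the 35 peaks (8.57%) had a smaller LPS change in pretreated cells and 0 a larger one (background 5.9% and 2.01%). These were the Cxcl1 start (log2 -1.50, SE 0.34), the Cxcl2 start (log2 -1.28, SE 0.21) and the peak 2.33 kb after the Cxcl2 start (log2 -1.16, SE 0.32). The Cxcl1 and Cxcl2 starts are promoter peaks, and the term was called lower at 16.9% of all promoter peaks. The count is not far from these shares and is given as a description. The call at the Cxcl2 start was kept in DESeq2 and in every leave-out run. That at the Cxcl1 start was lost in DESeq2 (FDR = 0.0788) and without replicate number 2 (FDR = 0.119), and that 2.33 kb after the Cxcl2 start in DESeq2 (FDR = 0.0978), with total counts (FDR = 0.0603) and without replicate number 2 (FDR = 0.0859) or 3 (FDR = 0.112). For (+)-JQ1, 1 peak (2.86%) had a smaller and 1 (2.86%) a larger LPS change (background 3.19% and 0.649%). Among all promoter peaks the (+)-JQ1 term was called lower at 11.2%. The smaller one was the Cxcl2 start (log2 -0.69, SE 0.21, FDR = 0.0361), where the (+)-JQ1 difference was log2 0.44 without LPS and -0.25 with LPS, neither called. Without replicate 1 of LPS + (+)-JQ1 the term was -0.98 (SE 0.21, FDR = 0.00338), while without replicate 2 or 3 of that group it was not called (log2 -0.57, FDR = 0.127 and log2 -0.56, FDR = 0.178). Total counts (log2 -0.43, FDR = 0.119) and loess offsets (log2 -0.29, FDR = 0.444) also lost the call. It was not called either without LPS replicate 1, 2 or 3 (FDR = 0.0993, 0.0595 and 0.0545), each left out alone. At the Cxcl1 start the term was -0.17 (SE 0.34) with all libraries and -0.80 (SE 0.31, FDR = 0.151) without that library. The larger one, in the signed sense, was a weak peak 7.4 kb before Cxcl1 (log2 2.19, SE 0.58), at 0.418 to 2.2 CPM in all 18 libraries. Its LPS change was log2 -0.71 in untreated cells, not called, and 1.48 in (+)-JQ1-treated cells.

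The signal was also summed over each block. The 15 peaks of the Cxcl1 and Cxcl2 block added up to 75.6, 85.3 and 86.4 CPM in unstimulated cells, 189, 192 and 183 CPM with LPS, 149, 137 and 122 CPM with LPS + IL-10 and 235, 151 and 145 CPM with LPS + (+)-JQ1. Every LPS + IL-10 library lay between the unstimulated and the LPS libraries, and so did 2 of the 3 LPS + (+)-JQ1 libraries. The 20 peaks of the Cxcl5 and Cxcl3 block added up to 68.1 ± 6.41 CPM in unstimulated cells and 63.4 ± 9.63 CPM with LPS, with overlap, and to 91.1 ± 3.75 CPM with (+)-JQ1 alone.

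**Figure D4:**
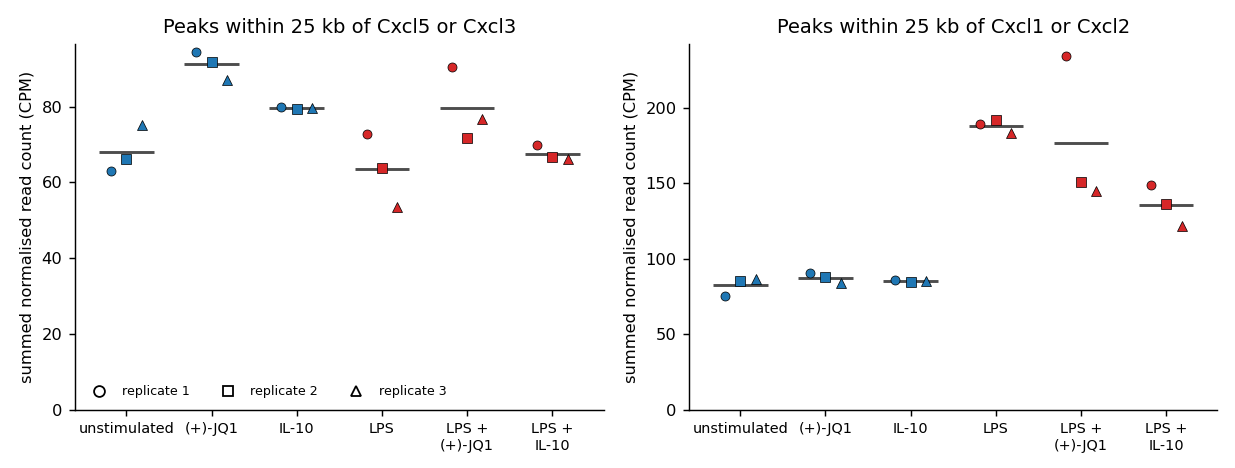
Summed CPM (linear axis from 0) of the 20 peaks within 25 kb of Cxcl5 or Cxcl3 (left) and the 15 peaks within 25 kb of Cxcl1 or Cxcl2 (right) by group; points are libraries by replicate number and lines are means. On the right, LPS libraries (183 to 192 CPM) lay above LPS + IL-10 libraries (122 to 149 CPM), and the LPS + (+)-JQ1 libraries ranged from 145 to 235 CPM.

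Across the 18 libraries, log2 CPM of the Cxcl1 and Cxcl2 start sites had a Pearson r of 0.91, while r was -0.22 between Cxcl5 and Cxcl3 and 0.36 or below for the other pairs. These r are descriptions over libraries that share groups. The promoter peaks elsewhere in the genome most like Cxcl2, among 10290 with at least 50 mean normalised counts, were those of Cd69, an early activation marker (r = 0.984), Olfr433 (0.979), the interferon-induced GTPase gene Gbp5 (0.977), Cdc42bpg (0.976) and Gbp2 (0.975). The Cd69 peak averaged 9.60 CPM in unstimulated cells, 38.5 CPM with LPS, 31.6 CPM with LPS + (+)-JQ1 and 22.4 CPM with LPS + IL-10. Cd69 was picked by its r with Cxcl2 over these same libraries, so a like order of groups follows from that choice and adds nothing to it. For Cxcl1 they were the shared promoter of 9330154J02Rik and Tpbg (0.929), H2-Q6 (0.928), Axl (0.926), Plek2 (0.924) and Pdgfrb (0.918). Cxcl5 and Cxcl3 had weaker likenesses, led by Ctsk, which encodes cathepsin K (0.771), and Crbn (0.826).

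Other genes of the neutrophil axis were examined in the same way. The neighbours Ppbp, Pf4 and Cxcl15 shared 19, 16 and 10 peaks with the windows above and are covered there. Within 25 kb of 9 further genes (the receptors Cxcr1, Cxcr2 and Ackr1, the granulocyte growth factor gene Csf3, the cytokine receptors Il17ra, Il1r1 and Tnfrsf1a, and the retention pair Cxcl12 and Cxcr4), 19 of 120 peaks (15.8%) were higher and 6 (5%) lower with LPS, against 11.7% and 10.2% of all peaks. With (+)-JQ1 under LPS, 3 (2.5%) were higher and 2 (1.67%) lower, against 1.74% and 3.49%, and with IL-10 under LPS 12 (10%) were higher and 3 (2.5%) lower, against 4.26% and 4.51%. Cxcr4, which holds neutrophils in the marrow, had 4 of 12 peaks lower with LPS, the strongest of them at 16.7 ± 2.98 CPM without and 4.76 ± 0.336 CPM with LPS (log2 -1.82, SE 0.16). Cxcr2, the receptor of the 4 chemokines, had 1 of 9 peaks higher with LPS and 2 lower with IL-10 under LPS. Csf3 had 2 of 14 peaks higher with LPS and 0 called with either pretreatment under LPS. Tnfrsf1a, which encodes a TNF receptor, had 8 of 24 peaks higher with LPS and 2 lower with (+)-JQ1 under LPS.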

How the data were processed

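ATAC-seq libraries were prepared from 18 BMDM cultures (6 groups of 3). The authors processed reads with PEPATAC, aligned them to mm9 with Bowtie2, kept uniquely mapped pairs, called peaks in each sample with MACS2, merged these into a union set and classed peaks with ChIPseeker as promoter (1000 bases before to 100 after a start site) or distal. The deposited values are raw counts per union peak; the counting tool is not given in the sources used here. A further 6 columns matched no sample and were not used. Peak coordinates are printed as deposited.

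Counts were fitted with edgeR 4.0.16 in R 4.3.3 (TMM scaling, filterByExpr, quasi-likelihood test) over all 6 groups, with 194230 of 194284 peaks tested and Benjamini-Hochberg adjustment over all of them (FDR). A peak was called at FDR below 0.05 and an absolute log2 fold change above 0.5. SE is the log2 fold change divided by the square root of F, and 95% intervals are 1.96 SE each side. CPM values use TMM-scaled library sizes. Named peaks were those over a start site or gene body of the 4 genes, up to 3 other called peaks per direction of the first 3 comparisons, and the 3 strongest (17 in all). The peaks 7.4 kb before Cxcl1 and 8.58 kb before Cxcl3, and the peaks given with values for other genes, were chosen after their values were seen. The members, lists and motifs were chosen with earlier results of these data known.

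Alternatives were DESeq2 1.42.0, other scalings and filters, a replicate block, lane as a covariate, narrower windows and leaving out replicates; leaving out single LPS or LPS + (+)-JQ1 libraries was chosen after seeing the data. After centring on the group means, libraries that shared a number correlated with a mean r of 0.0057 (range -0.082 to 0.064, 45 pairs), so the numbers were not taken as pairs. The labels do not tie a number to a mouse, so p-values measure the spread between these libraries. On data simulated for LPS against unstimulated (190252 peaks tested), edgeR recovered 86 of 100 peaks changed by log2 2 and 9 of 100 changed by log2 1, and DESeq2 75 and 9. Only 200 peaks were changed there and all were given the same dispersion, while the real data had 22790 peaks called higher and 19802 lower. The adjustment was thus stricter in the simulation, so these shares do not give the recovery in the real data. Sequences were read from mm9 with GENCODE M1 starts.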

Additional observations from a re-analysis of the deposited data

Results flagged for a closer look

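At 5 peaks the change with LPS differed between pretreated and untreated cells by an interaction term in edgeR. For IL-10 these were the Cxcl1 start (log2 difference of the LPS change -1.50, SE 0.34), the Cxcl2 start (log2 difference -1.28, SE 0.21) and the peak 2.33 kb after the Cxcl2 start (log2 difference -1.16, SE 0.32), each with a smaller LPS change in the presence of IL-10. For (+)-JQ1 they were the Cxcl2 start, with a smaller change (log2 difference -0.69, SE 0.21), and the weak peak 7.4 kb before the Cxcl1 start (log2 difference 2.19, SE 0.58). At that weak peak the LPS change was log2 -0.71 in untreated cells, not called, and 1.48 in (+)-JQ1-treated cells. Of the IL-10 terms, the Cxcl2 start kept its call in DESeq2 and in every leave-out run, while the other 2 lost it in DESeq2 and without replicate number 2. Both (+)-JQ1 terms lost the call under several leave-outs and under loess offsets. The IL-10 term was called lower at 8.57% of the 35 peaks, against 5.9% of all peaks and 16.9% of promoter peaks. The (+)-JQ1 term was called lower at 2.86%, against 3.19% and 11.2%, and higher at 2.86%, against 0.649% of all peaks.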

How the results depend on the processing

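Of 400 counts of called peaks under alternatives, 334 were within 1.5 times the reported count and 66 were not, and of 1504 single-peak values 1399 kept their direction and call, 97 lost the call, 8 gained it and 0 reversed. The replicate block changed 0 of 84 single-peak calls and left the counts as they were (11 higher and 2 lower with LPS), and 9 of 18 libraries correlated best with their own number. The cause of the following changes was not tested.

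Peaks within 10 kb gave 1 lower with LPS, 0 higher with (+)-JQ1 under LPS, 1 higher with IL-10 under LPS, 1 lower with LPS in (+)-JQ1-treated cells, 0 higher with (+)-JQ1 alone and 0 lower for LPS + (+)-JQ1 against LPS + IL-10, since fewer peaks were counted. Loess offsets gave 1 higher with (+)-JQ1 under LPS, 1 higher with IL-10 under LPS, 1 higher and 1 lower with (+)-JQ1 alone, 0 lower for LPS + (+)-JQ1 against LPS + IL-10 and 0 in either direction for the (+)-JQ1 interaction. Total counts gave 0 higher with (+)-JQ1 alone, 0 lower for the (+)-JQ1 interaction and 1 higher for the IL-10 interaction. A minimum of 10 counts in every library gave 1 lower with (+)-JQ1 under LPS, 0 higher for the (+)-JQ1 interaction and 1 higher for the IL-10 interaction. Lane as a covariate gave 1 lower with (+)-JQ1 under LPS. Fitting only the groups compared gave 1 lower with (+)-JQ1 alone and 0 lower for the (+)-JQ1 interaction. DESeq2 gave 0 higher for the (+)-JQ1 interaction, where the adjusted p of the peak concerned was not available, and 1 lower for the IL-10 interaction.

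Leaving out a replicate or a library gave 8 to 11 higher and 1 to 2 lower with LPS, 0 to 2 higher and 0 to 3 lower with (+)-JQ1 under LPS, and 1 to 2 higher and 4 to 5 lower with IL-10 under LPS. It gave 5 to 10 higher and 1 to 3 lower with LPS in (+)-JQ1-treated cells, 5 to 8 higher and 2 to 3 lower with LPS in IL-10-treated cells, 1 to 5 higher and 0 to 3 lower with (+)-JQ1 alone, and 0 to 1 higher and 0 lower with IL-10 alone. For LPS + (+)-JQ1 against LPS + IL-10 it gave 1 to 7 higher and 0 to 1 lower, for the (+)-JQ1 interaction 0 to 1 in either direction, and for the IL-10 interaction 0 higher and 1 to 3 lower. With total counts the share of calls over all peaks that were higher moved from 53.5% to 25.4% for LPS, from 71.3% to 12.3% for (+)-JQ1 alone, from 59.6% to 12.9% for IL-10 alone, from 16.9% to 71.8% for the (+)-JQ1 interaction, from 25.4% to 70.3% for the IL-10 interaction, from 48.6% to 60.5% for IL-10 under LPS and from 42.3% to 27.3% for LPS + (+)-JQ1 against LPS + IL-10, and the median of all peaks moved to -0.26 for LPS. With loess offsets it was 39.8% for (+)-JQ1 alone, 58% for the (+)-JQ1 interaction and 51.4% for the IL-10 interaction, and with DESeq2 81.4% for (+)-JQ1 alone and 70.8% for IL-10 alone. Weak peaks near 1 CPM could be called only for large changes at this depth.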
